A study of Mus musculus with 22 samples.

Results

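The corticosteroid receptors and 30 genes known as glucocorticoid-induced in brain were followed in mouse striatum after self-administration of the opioid analgesic oxycodone. The list of 32 genes was given by name, with no measured value in its rule, but with earlier results of these data known. Of these, 31 are among the 23119 genes of the deposited count table, and Cebpd is not analysed here. All 31 passed the filter on low counts in every comparison.

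The mice were adult C57BL/6J males. Oxycodone mice took the drug themselves at 0.25 mg/kg per infusion in sessions of 4 h per day for 14 days. Saline mice were their yoked controls and were given saline infusions for the same hours and days, so mice of all 4 groups were infused. Dorsal striatum gave 5 oxycodone and 5 saline libraries, and ventral striatum gave 6 oxycodone and 6 saline libraries, each made from ribosome-depleted total RNA of bulk tissue. The labels do not say whether each library is 1 mouse or a pool, whether dorsal and ventral libraries share mice, or when tissue was taken after the last session. In the dorsal striatum 2 pairs of libraries share a title number and treatment, 1 pair in each treatment, and may not be separate mice. The p-values measure the spread between these libraries only. In bulk tissue, more cells of a type and more RNA per cell cannot be told apart.

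Glucocorticoids, corticosterone in the mouse, are released by the adrenal cortex under stress and in a daily rhythm. They bind the glucocorticoid receptor, encoded by Nr3c1, and with higher affinity the mineralocorticoid receptor, encoded by Nr3c2. The bound receptor leaves its chaperones, enters the nucleus and binds DNA as a dimer at palindromic elements, from which genes such as Fkbp5, Tsc22d3, Sgk1 and Zbtb16 are induced in neurons, glia and vascular cells.

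Promoters show where the letters of such an element occur. RefSeq promoter windows on GRCm38.p6, from 250 bases before to 50 bases after a transcript start, were matched by symbol for 27 of the 32 genes (42 windows). Nr3c1, Zbtb16, Cebpd, Angptl4 and Gpd1 were not matched. The full palindrome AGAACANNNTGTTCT, which reads the same on both strands, is in 3 of all 32851 windows (0.00913%), and 1 of these is a window of Sgk1. The core ACANNNTGT, which lies inside the full palindrome, is in 6.85% of all windows and in 8 of the 42 windows listed here, which belong to Fam107a, Lcn2, Map3k6, Mt1, Sgk1 and Txnip. The single hexamer AGAACA, searched on both strands as AGAACA and TGTTCT and also part of the full palindrome, is in 19% of all windows and in 8 of the 42, which belong to Bcl6, Fam107a, Sgk1, Sult1a1 and Tsc22d3. Windows of 1 gene can overlap, and 2 windows of Fam107a hold the same sites. Counted by gene, the core is in 6 of the 27 (22.2%), against 7.9% of all genes with a window. The hexamer is in 5 of the 27 (18.5%), against 21.3%. A match describes the letters and is not a measured binding site.

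The windows printed here are those of Sgk1 with the full palindrome and of Lcn2 as the gene with the largest fitted change. Also printed is a window with a match for each of Fam107a and Tsc22d3, whose unadjusted edgeR p-values were under 0.05 in both regions. Capitals mark every match of the palindrome, core or hexamer. The lines give Sgk1 at chr10:21993640-21993939 on the plus strand, Lcn2 at chr2:32387690-32387989, Fam107a at chr14:8309730-8310029 and Tsc22d3 at chrX:140600473-140600772, these last on the minus strand, all 5′ to 3′ along the gene.
Sgk1: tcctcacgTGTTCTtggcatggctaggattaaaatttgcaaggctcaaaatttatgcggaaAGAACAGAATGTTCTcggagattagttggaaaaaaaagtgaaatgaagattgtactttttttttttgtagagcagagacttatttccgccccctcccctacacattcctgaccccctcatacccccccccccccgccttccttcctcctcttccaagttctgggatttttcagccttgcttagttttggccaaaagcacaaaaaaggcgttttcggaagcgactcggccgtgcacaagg
Lcn2: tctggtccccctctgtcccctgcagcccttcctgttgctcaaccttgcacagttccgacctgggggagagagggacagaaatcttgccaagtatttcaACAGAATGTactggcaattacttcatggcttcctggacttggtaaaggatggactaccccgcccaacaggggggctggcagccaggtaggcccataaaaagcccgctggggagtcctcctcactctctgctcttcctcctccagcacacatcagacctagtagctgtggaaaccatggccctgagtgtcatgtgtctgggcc
Fam107a: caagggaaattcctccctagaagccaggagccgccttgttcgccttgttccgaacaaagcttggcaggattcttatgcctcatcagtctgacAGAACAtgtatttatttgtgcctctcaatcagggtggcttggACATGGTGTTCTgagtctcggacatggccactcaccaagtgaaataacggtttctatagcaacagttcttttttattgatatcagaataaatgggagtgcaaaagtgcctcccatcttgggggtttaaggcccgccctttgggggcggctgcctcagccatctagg
Tsc22d3: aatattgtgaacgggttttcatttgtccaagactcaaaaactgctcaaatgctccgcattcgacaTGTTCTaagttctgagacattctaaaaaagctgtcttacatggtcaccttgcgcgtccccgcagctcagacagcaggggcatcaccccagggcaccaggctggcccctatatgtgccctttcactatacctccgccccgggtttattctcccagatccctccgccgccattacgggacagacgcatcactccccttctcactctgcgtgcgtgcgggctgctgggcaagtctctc
In Sgk1 the palindrome reads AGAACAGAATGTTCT and begins at position -189 from the transcript start. The core of Lcn2, ACAGAATGT at position -152, has the same letters as the centre of the Sgk1 palindrome. In Fam107a the core and a hexamer overlap, and in Tsc22d3 a hexamer stands alone at position -185.

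Depth ranged between 13797075 and 17836414 counts per library for dorsal oxycodone and between 11314079 and 21921963 for dorsal saline, and from 8408829 to 10007992 in the ventral oxycodone and from 9172185 to 11000345 in the ventral saline libraries. Medium spiny neuron markers marked the tissue as striatum in 21 of the 22 libraries, with summed levels of 2606 CPM (counts scaled to the library size) or more in every oxycodone library. The exception was ventral saline replicate 6, at 243.6 CPM. Ventral oxycodone replicate 6 stood apart from the other ventral libraries through choroid plexus and ependyma markers, at 1804 CPM against 70.0 CPM or less. Its medium spiny neuron markers were at 5353 CPM, against 3356 CPM or less in the others. Ventral striatum markers were at 110.7 CPM in it and 105.5 CPM in ventral saline replicate 6. The other ventral libraries held 230.6 CPM or more and the dorsal ones 108.2 to 187.8 CPM. Glutamatergic neuron markers reached 1744 CPM in ventral saline replicate 6, against 543.6 CPM or less in the other ventral libraries. Choroid plexus and ependyma markers also varied between dorsal libraries, from 85.9 to 3301 CPM with oxycodone and from 387.9 to 3599 CPM with saline. Whether the dissection differed was not tested in either region. Ventral saline replicate 1 had mural cell markers at 923.5 CPM, against 414.8 CPM or less in the other ventral libraries. Ventral values rest on all 12 libraries unless the sixth are said to be left out.

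In the dorsal striatum, 28 of the 31 genes had higher fitted levels with oxycodone than with saline, against 47.9% of all 14595 genes tested. Their median log2 change was 0.44, with a range of -0.25 to 1.73, while the median over all genes was -0.01. Of the 31, only Zbtb16 passed the threshold, an adjusted p under 0.05 by edgeR's quasi-likelihood test, where 0.206% of all genes tested did. None was called lower, against 0.00685% of all genes. An unadjusted p under 0.05 was reached by 12 of the 31 in the higher direction, against 3.25% of all genes, and by 1 in the lower direction, Nr3c1, against 2.39%. DESeq2 called 2 of the 31 (Zbtb16 and Lcn2), among 86 of all 14595 genes. By limma-voom 4 were called (also Arrdc2 and Plin4), among 32 of all genes. Every oxycodone library lay above every saline library for 2 of the 31 genes, Zbtb16 and Lcn2, against 0.843% of all genes.

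In the ventral striatum, 29 of the 31 genes had higher fitted levels with oxycodone, against 49.1% of 14116 genes tested. The median log2 change was 0.27, with a range of -0.11 to 1.27, beside 0 over all genes. None of the 31 passed the threshold by edgeR's quasi-likelihood test, and 0% of all genes tested did. An unadjusted p under 0.05 was reached by 9 of the 31 genes in the higher direction, against 4.94% of all genes, and by 0 in the lower direction, against 4.19%. For 0 of the 31 did every oxycodone library lie above every saline library, against 0.312% of all genes. DESeq2 called 0 of them, with 38 of all genes called, and limma-voom 1, Lcn2, with 61 of all genes called. Without both sixth libraries 28 were positive, the median was 0.25 and again 0 passed the threshold. Their removal turned the sign of 3 small log2 changes, those of Angptl4 (0.14 without them), Mt1 (-0.02) and Per1 (-0.05). With 1 library left out at a time 22 to 29 of the 31 were positive. The fewest, 22, were positive without oxycodone replicate 4.

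**Figure D1:**
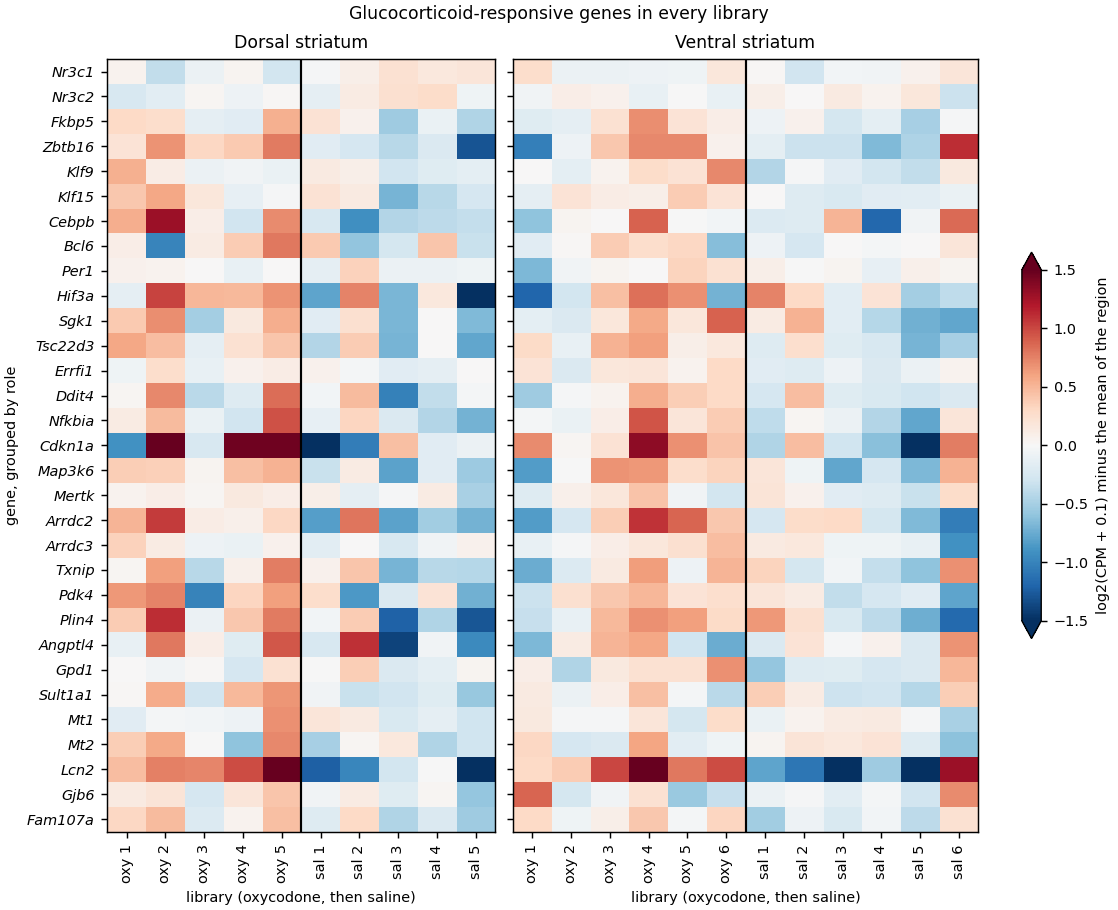
Level of each of the 31 genes (rows, by role) in every library (columns, oxycodone then saline, 5 and 5 dorsal, 6 and 6 ventral) as log2(CPM + 0.1) minus the mean of the region, with colours saturated at 1.5. Most dorsal oxycodone columns are redder than the saline columns, with oxycodone replicates 2 and 5 the reddest and saline replicates 3 and 5 the bluest, and saline replicate 2 is red for Arrdc2, Plin4 and Angptl4.

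The receptors themselves did not pass the threshold in either region. Nr3c1 (ENSMUSG00000024431, chromosome 18, 39410545 to 39519421 on GRCm38) held 87.2, 64.7, 78.9, 86.3 and 69.5 CPM in the dorsal oxycodone libraries, against 82.8, 88.8, 98.6, 94.0 and 94.9 CPM in the dorsal saline libraries. Its mean was the lower one with oxycodone, 77.3 ± 10.0 against 91.8 ± 6.16 CPM (SD, n = 5 each), and the groups overlapped. The log2 change was -0.25 (SE 0.10, edgeR adjusted p 0.707). In the ventral libraries Nr3c1 ran from 76.0 through a median of 77.2 to 97.4 CPM with oxycodone, against 66.1, 80.3 and 91.4 CPM with saline, a log2 change of 0.05 (SE 0.09, edgeR adjusted p 0.887).

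Nr3c2 (ENSMUSG00000031618, chromosome 8, 76899442 to 77245012) had 63.0, 66.7, 75.7, 70.4 and 75.5 CPM in dorsal oxycodone libraries, against 67.9, 80.7, 87.6, 89.7 and 71.3 CPM in dorsal saline libraries. Those groups overlapped, and the log2 change was -0.18 (SE 0.10, edgeR adjusted p 0.946). Its lowest, median and highest ventral levels were 118.0, 124.9 and 136.3 CPM with oxycodone, against 101.9, 134.4 and 143.8 CPM with saline, a log2 change of -0.04 (SE 0.08, edgeR adjusted p 0.887). Per kilobase of exon, Nr3c2 averaged 10.9 ± 0.852 and Nr3c1 10.1 ± 1.30 CPM in dorsal oxycodone libraries, whereas in ventral oxycodone libraries Nr3c2 stood at 19.5 ± 1.18 and Nr3c1 at 10.7 ± 1.21 CPM per kilobase.

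Fkbp5 encodes a co-chaperone that lowers the receptor's affinity for its hormone and is itself induced by the receptor. It (ENSMUSG00000024222, chromosome 17, 28399094 to 28517527) held 44.3, 43.4, 32.8, 31.9 and 52.4 CPM in dorsal oxycodone libraries, against 42.0, 37.6, 24.9, 33.5 and 26.4 CPM in dorsal saline libraries. Oxycodone replicates 1, 2 and 5 lay above every saline library and the other 2 within their range, with a log2 change of 0.32 (SE 0.16, edgeR adjusted p 0.883). Ventral levels of Fkbp5 ran from 37.6 through 47.4 to 69.2 CPM with oxycodone, against 30.2, 39.4 and 44.5 CPM with saline, a log2 change of 0.34 (SE 0.15, edgeR adjusted p 0.517), and 4 of the 6 oxycodone libraries lay above every saline library.

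All 7 transcription factors in the table had positive fitted changes in both regions, although that of Per1 was 0.00 in the dorsal and 0.01 in the ventral striatum at 2 decimals. Zbtb16 encodes a zinc finger repressor (PLZF) that glucocorticoids and progestins induce. It (ENSMUSG00000066687, chromosome 9, 48654297 to 48836222) had 38.2, 52.5, 40.9, 43.4 and 56.7 CPM in dorsal oxycodone libraries, against 29.3, 27.6, 24.7, 28.4 and 13.4 CPM in dorsal saline libraries. The groups did not overlap, and saline replicate 5 lay well below the other saline libraries. The log2 change was 0.91 (SE 0.17, edgeR adjusted p 0.0162).

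The Zbtb16 call held in 6 of the 10 fits that left out 1 library. It was lost without oxycodone replicate 2 (edgeR adjusted p 0.0566), oxycodone replicate 5 (0.0694), saline replicate 3 (0.0538) or saline replicate 5 (0.0677), with log2 changes of 0.75 to 0.99 over all 10. Titles of 5 dorsal libraries carry a suffix P of unstated meaning. Zbtb16 had a log2 change of 0.82 (edgeR adjusted p 0.401) in those 5 and of 0.97 (edgeR adjusted p 0.592) in the 5 without it.

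Ventral libraries showed a wider spread, and Zbtb16 ran from 18.7 through 45.0 to 62.9 CPM with oxycodone, against 24.0, 30.4 and 81.9 CPM with saline. The highest value was that of saline replicate 6, and the other 5 saline libraries held 34.2 CPM or less. The log2 change was 0.25 (SE 0.34, edgeR adjusted p 0.848), and 0.66 (edgeR adjusted p 0.482) without both sixth libraries.

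Klf9 and Klf15, Krüppel-like factors that the receptor induces directly, were the lowest-p transcription factors of the ventral striatum. Klf15 (ENSMUSG00000030087, chromosome 6, 90462576 to 90475238) ran from 21.3 through 26.2 to 30.7 CPM in ventral oxycodone libraries, against 20.0, 21.0 and 23.6 CPM in ventral saline libraries. Of the oxycodone libraries, 5 of 6 lay above every saline library, and the log2 change was 0.30 (SE 0.09, unadjusted p 0.00462, edgeR adjusted p 0.393). Dorsal libraries held 59.6, 67.3, 50.4, 41.0 and 44.3 CPM of Klf15 with oxycodone, against 52.1, 49.2, 27.6, 33.7 and 37.6 CPM with saline, and the groups overlapped (log2 change 0.40, SE 0.16, edgeR adjusted p 0.708).

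Klf9 (ENSMUSG00000033863, chromosome 19, 23141226 to 23168134) ran from 72.0 through 87.6 to 132 CPM with oxycodone in the ventral striatum, against 59.0, 68.3 and 88.2 CPM with saline. That was a log2 change of 0.40 (SE 0.15, edgeR adjusted p 0.487), with oxycodone replicate 6 the highest library. Dorsal libraries held 237, 177, 154, 158 and 153 CPM with oxycodone, against 179, 174, 135, 144 and 148 CPM with saline, a log2 change of 0.17 (SE 0.11, edgeR adjusted p 0.983). Oxycodone replicate 1 stood above all others, and without it the log2 change of Klf9 was 0.04.

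Cebpb, a leucine zipper factor of inflammation and fat cell differentiation, held 6.503, 10.9, 4.74, 3.59 and 7.25 CPM in dorsal oxycodone libraries, against 3.73, 2.29, 3.24, 3.33 and 3.41 CPM in dorsal saline libraries. Of the 5 oxycodone libraries, 4 lay above every saline library, and the log2 change was 1.04 (SE 0.36, unadjusted p 0.00635, edgeR adjusted p 0.459). Ventral levels of Cebpb were lower, 0.694, 1.11 and 2.13 CPM at the lowest, median and highest with oxycodone, against 0.432, 1.01 and 2.08 CPM with saline (log2 change 0.02, SE 0.36, edgeR adjusted p 0.992). Exons of Cebpb (ENSMUSG00000056501, chromosome 2, 167688915 to 167690418) overlap those of Tmem189 on the other strand by 312 bases, and the strand setting of the counting is not given in the sources used here. The other 3 factors, chosen for mention after their values were seen, were the repressor Bcl6, the clock gene Per1 and the hypoxia-inducible factor subunit gene Hif3a, with dorsal log2 changes of 0.21, 0.00 and 0.81 and ventral ones of 0.09, 0.01 and 0.05.

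**Figure D2:**
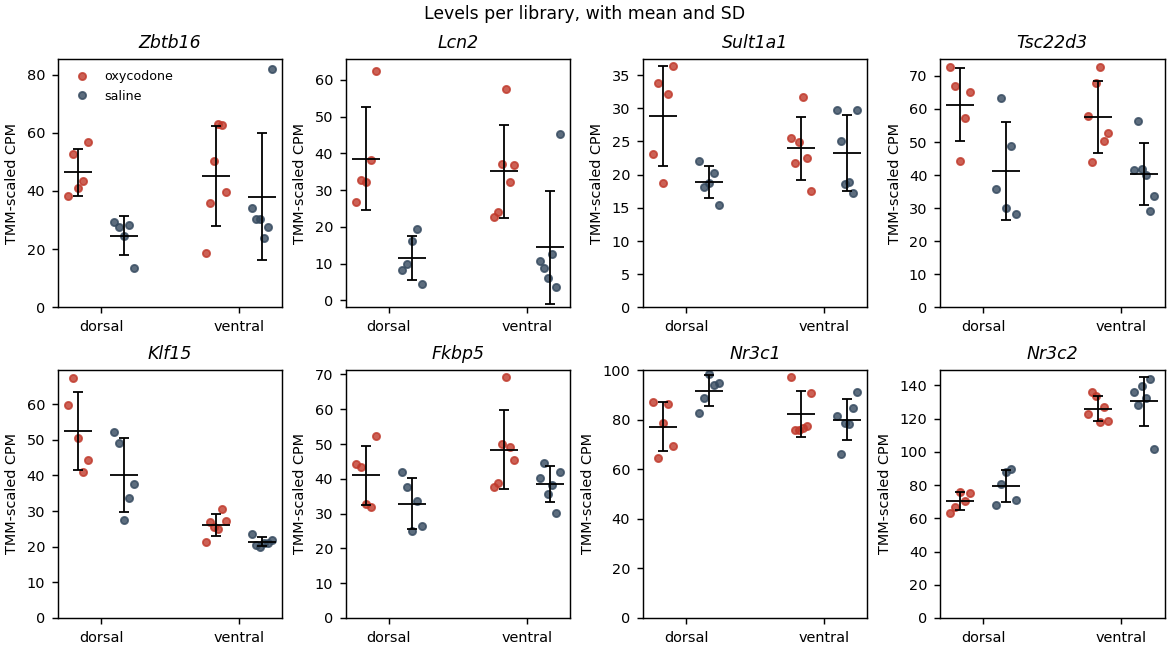
TMM-scaled CPM of 8 genes in each library (points), with mean and SD (bars), oxycodone in red left of saline in dark blue, for dorsal (5 and 5 libraries) and ventral striatum (6 and 6). Zbtb16 and Lcn2 do not overlap between groups in the dorsal striatum, ventral saline replicate 6 is the highest saline library for both, at 81.9 and 45.2 CPM, and Nr3c2 is higher in ventral than in dorsal libraries of both treatments.

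All 8 kinases and signalling regulators had positive log2 changes in both regions, from 0.11 to 1.42 in the dorsal and from 0.06 to 0.82 in the ventral striatum. Tsc22d3 encodes GILZ, the glucocorticoid-induced leucine zipper, which restrains NF-kappaB and AP-1. It (ENSMUSG00000031431, chromosome X, 140539528 to 140600659) had 72.8, 67.0, 44.3, 57.3 and 65.1 CPM in dorsal oxycodone libraries, against 35.8, 63.3, 29.9, 48.9 and 28.3 CPM in dorsal saline libraries. Saline replicate 2 lay within the oxycodone range, and the log2 change was 0.57 (SE 0.20, unadjusted p 0.0132, edgeR adjusted p 0.605). Without saline replicate 2 it was 0.78, with an edgeR adjusted p of 0.0452. With the dorsal libraries of the same title number and treatment summed, Tsc22d3 was also called (log2 change 0.68, edgeR adjusted p 0.0413). These were its only dorsal calls, in 1 of the 10 fits that left out 1 library and in 1 of 12 other alternatives.

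Tsc22d3 in ventral libraries ran from 43.9 through 55.3 to 72.6 CPM with oxycodone, against 29.2, 40.8 and 56.5 CPM with saline. Of the saline libraries, 5 of 6 lay below every oxycodone library. The log2 change was 0.52 (SE 0.16, unadjusted p 0.00551, edgeR adjusted p 0.401), 0.43 in the 8 libraries of lane 1 and 0.73 in the 4 of lane 2.

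Map3k6, a stress-activated kinase, held 13.6, 13.5, 10.9, 14.4 and 15.1 CPM in dorsal oxycodone libraries, against 8.35, 11.4, 5.97, 9.30 and 7.16 CPM in dorsal saline libraries. Of the saline libraries, 4 of 5 lay below every oxycodone library, and the log2 change was 0.68 (SE 0.23, unadjusted p 0.00644, edgeR adjusted p 0.461). Ventral levels of Map3k6 (ENSMUSG00000028862, chromosome 4, 133240818 to 133252929) ran from 4.86 through 10.8 to 14.0 CPM with oxycodone, against 5.09, 7.88 and 12.6 CPM with saline (log2 change 0.37, SE 0.27, edgeR adjusted p 0.691).

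Errfi1, a feedback inhibitor of the EGF receptor, ran from 30.76 through 40.3 to 43.9 CPM in ventral oxycodone libraries, against 30.78, 32.7 and 37.0 CPM in ventral saline libraries. Oxycodone replicate 2 lay below every saline library and the other 5 above all of them, with a log2 change of 0.24 (SE 0.09, edgeR adjusted p 0.487). Dorsal Errfi1 levels were 37.7, 47.2, 36.4, 41.0 and 42.5 CPM with oxycodone, against 40.9, 38.5, 35.0, 35.7 and 39.3 CPM with saline (log2 change 0.11, SE 0.13, edgeR adjusted p 0.998).

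Nfkbia encodes the inhibitor that holds NF-kappaB in the cytoplasm. It ran from 18.3 through 21.7 to 37.9 CPM in ventral oxycodone libraries, against 11.4, 16.8 and 22.3 CPM in ventral saline libraries, a log2 change of 0.51 (SE 0.20, edgeR adjusted p 0.505). The groups overlapped, with oxycodone replicate 4 the highest library. Dorsal Nfkbia levels were 45.9, 58.3, 39.3, 34.4 and 81.4 CPM with oxycodone, against 38.5, 52.5, 36.2, 30.99 and 25.6 CPM with saline, and oxycodone replicate 5 stood above all others (log2 change 0.50, SE 0.24, edgeR adjusted p 0.895).

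The other 4 regulators were named after their values were seen. Sgk1, the serum- and glucocorticoid-regulated kinase, has the full palindrome in 1 of its promoter windows. It averaged 333 ± 95.4 CPM with oxycodone and 232 ± 65.0 CPM with saline in the dorsal striatum (SD, n = 5 each, log2 change 0.52, edgeR adjusted p 0.943). Ventral Sgk1 averaged 160 ± 49.5 CPM with oxycodone and 117 ± 42.9 CPM with saline (SD, n = 6 each; log2 change 0.47, edgeR adjusted p 0.581). Oxycodone replicate 6 was the highest and saline replicate 6 the lowest ventral library for Sgk1, and without both the log2 change was 0.21 (edgeR adjusted p 0.828). Cdkn1a, the cell cycle inhibitor p21, had the largest fitted change of the regulators, 1.42 in the dorsal and 0.82 in the ventral striatum, at levels of 0.107 to 5.00 CPM and with edgeR adjusted p-values of 0.789 and 0.599. Ddit4, an inhibitor of the mTOR pathway, had log2 changes of 0.41 and 0.27, and Mertk, a receptor tyrosine kinase for uptake of apoptotic cells, of 0.16 and 0.06, with edgeR adjusted p-values of 0.664 or more.

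The 3 arrestin-fold genes had positive log2 changes in both regions, from 0.15 to 0.73 in the dorsal and from 0.09 to 0.63 in the ventral striatum. Arrdc2, of a family that routes membrane receptors for degradation and named after its values were seen, shows how 1 library weighed. Dorsal saline replicate 2 held 42.6 CPM of Arrdc2, inside the range of the oxycodone libraries, 25.8 to 50.6 CPM, whereas the other 4 saline libraries held 13.7 to 17 CPM. With all libraries the log2 change of Arrdc2 was 0.73 (SE 0.35, edgeR adjusted p 0.904), and without that library it was 1.17 (edgeR adjusted p 0.0064). Of the 10 fits that left out 1 dorsal library, only this 1 called Arrdc2. Arrdc3, of the same family, had log2 changes of 0.15 in the dorsal and 0.27 in the ventral striatum (0.07 without both sixth libraries), and Txnip, an inhibitor of thioredoxin, had 0.44 and 0.09, with edgeR adjusted p-values of 0.607 or more.

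Of the 5 metabolic genes, 4 had positive log2 changes in each region. Sult1a1, a sulfotransferase for phenols, held 23.1, 33.7, 18.7, 32.1 and 36.4 CPM in dorsal oxycodone libraries, against 22.02, 18.1, 18.7, 20.2 and 15.4 CPM in dorsal saline libraries. Of the 5 oxycodone libraries, 4 lay above every saline library, and replicate 3 lay among them (log2 change 0.61, SE 0.18, unadjusted p 0.00176, edgeR adjusted p 0.271). Ventral levels of Sult1a1 (ENSMUSG00000030711, chromosome 7, 126672865 to 126676432) ran from 17.5 through 23.7 to 31.8 CPM with oxycodone, against 17.2, 22.01 and 29.8 CPM with saline (log2 change 0.05, SE 0.17, edgeR adjusted p 0.940). Its exons overlap those of Sgf29 on the other strand by 61 bases.

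The other 4 metabolic genes were named after their values were seen. Plin4, a lipid droplet coat protein, averaged 149 ± 46.6 CPM with oxycodone and 77.1 ± 37.8 CPM with saline in the dorsal striatum (SD, n = 5 each; log2 change 0.96, edgeR adjusted p 0.813). Pdk4, which limits glucose oxidation by inhibiting pyruvate dehydrogenase, had log2 changes of 0.58 in the dorsal and 0.43 in the ventral striatum, with edgeR adjusted p-values of 0.897 and 0.509. Angptl4, a secreted inhibitor of lipoprotein lipase, had 0.44 and -0.11, and Gpd1, the cytosolic glycerol phosphate dehydrogenase, had -0.02 and 0.32.

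The metal- and siderophore-binding genes held the largest fitted change of the list. Lcn2 encodes lipocalin 2, which sequesters bacterial siderophores and is made by neutrophils, reactive astrocytes and inflamed endothelium. It (ENSMUSG00000026822, chromosome 2, 32384633 to 32388252) had 26.9, 32.9, 32.3, 38.3 and 62.5 CPM in dorsal oxycodone libraries, against 8.26, 9.85, 16.04, 19.3 and 4.40 CPM in dorsal saline libraries. The groups did not overlap, and the log2 change was 1.73 (SE 0.40, unadjusted p 0.00173) with an edgeR adjusted p of 0.269. DESeq2 gave an adjusted p of 0.00669 and limma-voom 0.00526 for the same gene. With the title suffix as a covariate edgeR gave an adjusted p of 0.000496. In the 5 libraries without the suffix, 2 oxycodone and 3 saline, it gave 0.00613. These 4 were the only calls of Lcn2 in 12 alternatives. It was called in 0 of the 10 further fits that left out 1 dorsal library (edgeR adjusted p 0.0594 to 0.52). The call thus depended on the tool and on how the suffix was treated.

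Lcn2 in ventral libraries ran from 22.8 through 34.5 to 57.5 CPM with oxycodone, against 3.64, 9.71 and 45.2 CPM with saline. The 45.2 CPM came from saline replicate 6, and the other 5 saline libraries, at 12.7 CPM or less, lay below every oxycodone library. The log2 change was 1.27 (SE 0.51, edgeR adjusted p 0.508), and 2.05 (edgeR adjusted p 0.132) without both sixth libraries. Without them Lcn2 was the 1 gene of the 31 whose groups did not overlap, with oxycodone above, against 0.978% of all genes tested, and 0 of the 31 had every oxycodone library below, against 1.22%.

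Mt1 and Mt2 encode metallothioneins, small zinc- and copper-binding proteins that glucocorticoids and metals induce. Mt1 (ENSMUSG00000031765, chromosome 8, 94179082 to 94180327) held 99.4, 109, 109, 106 and 179 CPM in dorsal oxycodone libraries, against 126, 123, 95.2, 102 and 91.1 CPM in dorsal saline libraries. Only oxycodone replicate 5 exceeded the saline range, and the log2 change was 0.17 (SE 0.15, edgeR adjusted p 0.998). Ventral Mt1 levels ran from 188.5 through 237 to 273 CPM with oxycodone, against 161, 229 and 248 CPM with saline (log2 change 0.11, SE 0.11, edgeR adjusted p 0.780).

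Mt2 (ENSMUSG00000031762, chromosome 8, 94172664 to 94173568) held 47.9, 55.3, 37.1, 24.5 and 61.3 CPM in dorsal oxycodone libraries, against 26.4, 37.9, 41.7, 27.1 and 30.3 CPM in dorsal saline libraries. Oxycodone replicate 4 was the lowest of all and 3 oxycodone libraries were above every saline library (log2 change 0.47, SE 0.20, edgeR adjusted p 0.786). Ventral Mt2 levels ran from 33.7 through 37.2 to 60.7 CPM with oxycodone, against 26.2, 43.0 and 46.1 CPM with saline (log2 change 0.09, SE 0.17, edgeR adjusted p 0.884). Mt1 and Mt2 are close paralogs, and how reads that map to both were counted is not given in the sources used here.

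Both genes of the gap junction and cytoskeleton group had positive log2 changes in both regions. Fam107a, an actin-bundling protein of astrocytes and neurons induced by stress, ran from 212 through 255 to 293 CPM in ventral oxycodone libraries, against 154, 199.6 and 259.6 CPM in ventral saline libraries. Of the saline libraries, 4 of 6 lay below every oxycodone library (log2 change 0.34, SE 0.13, unadjusted p 0.0191, edgeR adjusted p 0.488). Dorsal Fam107a levels were 269, 302, 188, 224 and 296 CPM with oxycodone, against 189.5, 266, 158, 186 and 149 CPM with saline, and the groups overlapped (log2 change 0.43, SE 0.18, edgeR adjusted p 0.860). With libraries of the same title number and treatment summed, Fam107a was called (log2 change 0.51, edgeR adjusted p 0.017). That was the only call in 12 such alternatives, and 0 of the 10 fits that left out 1 dorsal library called it. Gjb6, the astrocytic connexin 30, named after its values were seen, had log2 changes of 0.26 in the dorsal and 0.01 in the ventral striatum (0.25 without both sixth libraries).

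**Figure D3:**
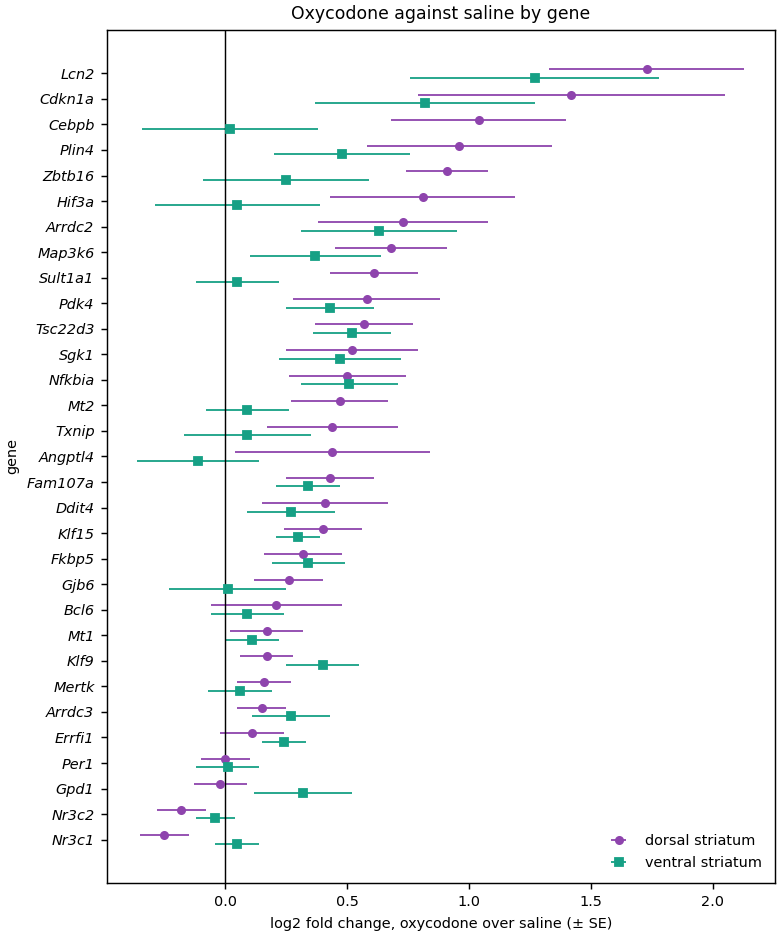
Log2 fold change of oxycodone over saline (x axis, with SE) of each of the 31 genes (rows, ordered by the dorsal change), circles for dorsal and squares for ventral striatum. In the dorsal striatum 28 and in the ventral striatum 29 of the 31 points lie to the right of 0, with Lcn2 at 1.73 and 1.27 and Nr3c1 at -0.25 and 0.05.

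The level over the 31 genes varied between libraries of a group. The mean log2 CPM over the 31 genes ran from 5.07 to 5.66 in dorsal oxycodone libraries and from 4.61 to 5.19 in dorsal saline libraries, and from 4.73 to 5.41 in ventral oxycodone and from 4.42 to 4.94 in ventral saline libraries. Oxycodone replicate 5 was the highest dorsal library for 12 of the 31 genes and oxycodone replicate 2 for 10, while saline replicate 5 was the lowest for 11 and saline replicate 3 for 10. In the ventral striatum oxycodone replicate 4 was the highest library for 15 genes.

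Summed markers of blood and leukocytes also had a higher median with oxycodone than with saline in the dorsal striatum. Whether they varied with the level of the 31 genes within a group was not tested. Of the leukocyte markers, 6 of 10 were tested and all 6 had positive log2 changes. By edgeR 4 rose, namely Itgal, Itgb2, Plac8 and Ptprc (adjusted p-values of 0.015 to 0.0439), where 0.199% of all genes did. DESeq2 called 4 of the leukocyte markers and limma-voom 1. The summed level over the 10 leukocyte markers was 54.6 to 131 CPM in oxycodone and 26.9 to 37.9 CPM in saline libraries. The T cell marker Cd3e was at 0 in every dorsal library. Of the blood markers, 9 of 10 were tested, 7 were positive and 1 rose, Alas2, the haem synthesis enzyme of red cells (edgeR adjusted p 0.0197), while the summed level over all 10 was 865 to 2047 CPM in oxycodone and 641 to 924 CPM in saline libraries. In the ventral striatum 6 of 10 leukocyte markers were tested and all were positive, with summed levels of 30.4 to 94.2 CPM in oxycodone and 17.5 to 68.4 CPM in saline libraries, the highest saline value being that of replicate 6. Dorsal oxycodone replicate 5 and ventral oxycodone replicate 4, the libraries in which more of the 31 genes peaked than in any other of their region, also had the highest summed leukocyte levels of their regions, 131 and 94.2 CPM, and the highest blood levels, 2047 and 1090 CPM. Both carry title number 7, and the labels do not say whether they share a mouse. Their deviations from the group means had a correlation of 0.3085, the highest of the 10 pairs that share a title number.

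With the mean level of the haemoglobin genes as a covariate, the dorsal median log2 change of the 31 genes was 0.10, 20 were positive and 0 passed the threshold by edgeR. Zbtb16 then had a log2 change of 0.77 with an edgeR adjusted p of 0.536, and Lcn2 of 1.62 with 0.940. In the ventral striatum the same covariate left a median of 0.17 with 23 positive. The dorsal haemoglobin level itself averaged 6.67 log2 CPM with oxycodone and 5.84 log2 CPM with saline. The covariate thus goes with treatment there, and the fit cannot tell them apart. Without dorsal oxycodone replicate 5 the dorsal median was 0.29, 27 were positive and 0 passed the threshold. The part of blood in these differences cannot be told from this fit, and the part of leukocytes was not tested.

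Markers of resident cells were also followed. In the dorsal striatum the median log2 change was 0.06 over 10 astrocyte markers, 0.01 over 10 endothelial, 0.19 over 10 mural cell, -0.03 over 10 oligodendrocyte and 0.20 over 10 microglial markers. None of these 50 genes passed the threshold by edgeR, where 8 higher and 2 lower had an unadjusted p under 0.05, and DESeq2 and limma-voom called 2 each. Ventral medians were 0.46 over oligodendrocyte markers (9 of 10 positive) and 0.61 over medium spiny neuron markers (10 of 10 positive), with 0 called by edgeR, DESeq2 or limma-voom and 0 at an unadjusted p under 0.05. Their lowest summed levels were 1295 and 2606 CPM in oxycodone libraries, against 454.1 and 243.6 CPM in saline libraries, both in saline replicate 6. Summed dorsal endothelial markers ran from 401 to 524 CPM in oxycodone and from 371 to 422 CPM in saline libraries.

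**Figure D4:**
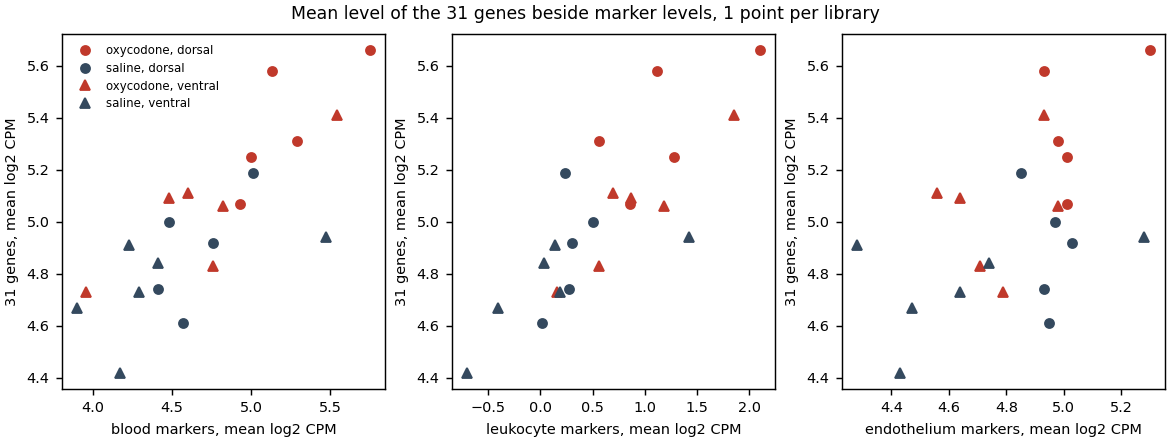
Mean log2 CPM of the 31 genes (y axis) against the mean log2 CPM of blood, leukocyte and endothelial markers (x axes), 1 point per library, red for oxycodone and dark blue for saline, circles for dorsal and triangles for ventral striatum. Dorsal oxycodone replicate 5, at 5.66 for the 31 genes, is highest on all 3 marker axes, and the dorsal oxycodone and saline libraries separate on the leukocyte axis.

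Whether the oxycodone effect differed between regions was tested by an interaction contrast over all 22 libraries, the dorsal effect minus the ventral effect. The difference was positive for 23 of the 31 genes, against 51.2% of all genes, with a median of 0.11. By edgeR's quasi-likelihood test 0 of the 31 genes passed the threshold, as did 0% of 14938 genes tested, and DESeq2 and limma-voom also called 0 of the 31. An unadjusted p under 0.05 was reached by 2 in the positive direction, against 2.02% of all genes, and by 1 in the negative direction, against 2.49%. These were Sult1a1, with a difference of 0.57 (SE 0.25, edgeR adjusted p 0.981), Cebpb, with 1.03 (SE 0.50, edgeR adjusted p 0.981), and Nr3c1, with -0.29 (SE 0.13, edgeR adjusted p 0.981). Zbtb16, called in the dorsal striatum only, had a difference of 0.68 (SE 0.45, edgeR adjusted p 0.981), so its effect is not shown to differ between regions.

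Between regions, levels of many of the genes differed within each treatment. The fitted dorsal level was the higher one for 22 of the 31 genes in oxycodone libraries, against 49.4% of all genes, and for 17 in saline libraries, against 49.3%. In oxycodone libraries 15 of the 31 genes passed the threshold for dorsal against ventral striatum, against 47.2% of all 14375 genes tested. Of these, 10 were higher in the dorsal striatum, against 23.5% of all genes, and 5 lower, against 23.7%. In saline libraries 13 of the 31 passed, against 45.8% of 14433 genes, with 8 higher, against 23.6%, and 5 lower, against 22.3%. Both shares are close to those of all genes, and tissue region, sequencing depth and library series cannot be told apart in this contrast. The 13 genes of the saline comparison are all among the 15 of the oxycodone comparison, in which Angptl4 and Plin4 were also higher.

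Nr3c2 was lower in the dorsal striatum in both treatments. Its dorsal libraries held 63.0 to 75.7 CPM with oxycodone, against 118.0 to 136.3 CPM in the ventral oxycodone libraries, a log2 change of -0.87 (SE 0.08, edgeR adjusted p 1.9e-07). In saline libraries it held 67.9 to 89.7 CPM in the dorsal and 101.9 to 143.8 CPM in the ventral striatum (log2 change -0.72, SE 0.10, edgeR adjusted p 5.3e-05). The regions did not overlap in either treatment, but the share of all genes without overlap between regions was not counted.

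Mt1 was also lower in the dorsal striatum, with 99.4 to 179 CPM in dorsal and 188.5 to 273 CPM in ventral oxycodone libraries (log2 change -1.0, SE 0.15, edgeR adjusted p 7.24e-05). In saline libraries Mt1 held 91.1 to 126 CPM in the dorsal and 161 to 248 CPM in the ventral striatum (log2 change -1.05, SE 0.12, edgeR adjusted p 7.74e-06). Its paralog Mt2 did not pass the threshold, at 0.08 (SE 0.22, edgeR adjusted p 0.806) in oxycodone and -0.29 (SE 0.16, edgeR adjusted p 0.154) in saline libraries. Bcl6, a transcriptional repressor best known from germinal centre B cells, was lower still, with 5.52 to 19.2 CPM in dorsal and 24.0 to 48.9 CPM in ventral oxycodone libraries (log2 change -1.67, SE 0.27, edgeR adjusted p 0.000225). In saline libraries Bcl6 held 7.30 to 14.8 CPM in the dorsal and 31.5 to 42.6 CPM in the ventral striatum (log2 change -1.77, SE 0.18, edgeR adjusted p 2.87e-06).

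Klf9, Klf15 and Cebpb were higher in the dorsal striatum. Klf9 held 153 to 237 CPM in dorsal and 72.0 to 132 CPM in ventral oxycodone libraries (log2 change 0.90, SE 0.16, edgeR adjusted p 0.000315), and 135 to 179 CPM in dorsal and 59.0 to 88.2 CPM in ventral saline libraries (log2 change 1.13, SE 0.11, edgeR adjusted p 2.17e-06). Klf15 had a log2 change of 0.99 in oxycodone (SE 0.13, edgeR adjusted p 1.43e-05) and of 0.90 in saline libraries (SE 0.15, edgeR adjusted p 0.000212). Neither factor overlapped between regions in either treatment. Cebpb held 3.59 to 10.9 CPM in dorsal and 0.694 to 2.13 CPM in ventral oxycodone libraries (log2 change 2.43, SE 0.34, edgeR adjusted p 2.13e-05). Its saline log2 change was 1.41 (SE 0.38, edgeR adjusted p 0.00675), and those saline libraries also did not overlap between regions. For these factors too, no share of all genes without overlap between regions was counted. Zbtb16 and Lcn2 did not pass the threshold between regions in either treatment.

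**Figure D5:**
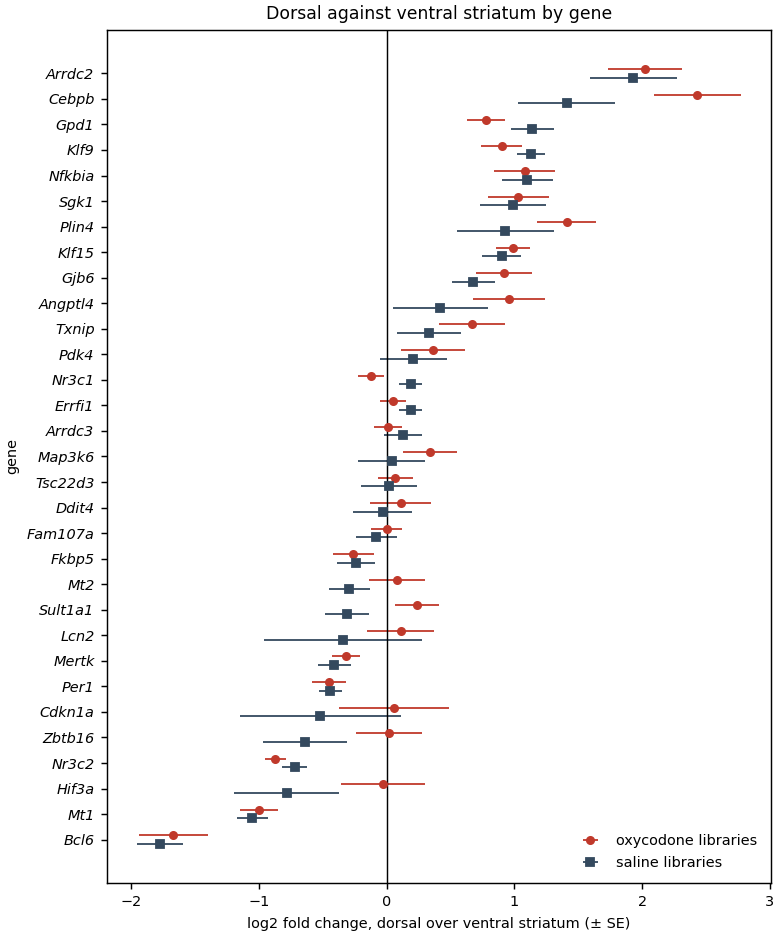
Log2 fold change of dorsal over ventral striatum (x axis, with SE) of each of the 31 genes (rows, ordered by the change in saline libraries), circles for oxycodone and squares for saline libraries. Bcl6, Mt1 and Nr3c2 lie left of 0 and Arrdc2, Cebpb, Gpd1, Klf9 and Nfkbia right of 0 in both treatments.

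Per kilobase of exon, Mt1 had the highest level of the 31 genes in all 4 groups, 96.8 ± 26.5 and 189 ± 24.3 CPM per kilobase in dorsal and ventral oxycodone libraries, against 86.2 ± 12.9 and 177 ± 25.9 in dorsal and ventral saline libraries. Mt2 was second in all 4 groups, but its level lay within 1 SD of that of Fam107a in dorsal oxycodone, dorsal saline and ventral oxycodone libraries, for example 76.9 ± 24.98 and 66.0 ± 12.6 CPM per kilobase in dorsal oxycodone libraries. At the low end, Cdkn1a stood at 0.899 ± 0.560 CPM per kilobase in dorsal oxycodone and 0.330 ± 0.213 in dorsal saline libraries. The order of Lcn2 among the 31 was 15 in dorsal oxycodone and 23 in dorsal saline libraries, and 12 in ventral oxycodone and 22 in ventral saline libraries.

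Other genes of the pathway were followed through 6 lists. Of 20 further glucocorticoid-induced genes, 2 rose in the dorsal striatum, both already known from earlier results of these data when the list was written. Tgm2, a transglutaminase that cross-links proteins, averaged 58.3 ± 19.1 CPM with oxycodone and 30.3 ± 2.64 CPM with saline (SD, n = 5 each; log2 change 0.95, SE 0.16, edgeR adjusted p 0.0101). Slc2a1, which encodes the glucose carrier GLUT1 of brain vessels and glia, averaged 248 ± 35.5 CPM with oxycodone and 165 ± 26.8 CPM with saline (SD, n = 5 each; log2 change 0.58, SE 0.10, edgeR adjusted p 0.0162). The median of that list was 0.15 in both regions. In the ventral striatum 0 of its 19 tested genes passed the threshold by edgeR, DESeq2 or limma-voom, and 2 had an unadjusted p under 0.05, the lower p being that of the lipid transporter Mfsd2a, with a log2 change of 0.32 (SE 0.09, edgeR adjusted p 0.393).

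Of 15 genes that glucocorticoids are known to repress, 9 passed the filter on low counts in the dorsal and 6 in the ventral striatum. In the comparisons between regions, 8 passed it among oxycodone and 5 among saline libraries. The filter thus kept more of these genes in oxycodone libraries, and its part in the positive changes was not tested. In the dorsal striatum 8 of the 9 tested had positive log2 changes, with their median at 0.85 beside -0.01 over all genes, and 0 were called by edgeR (3 at an unadjusted p under 0.05, DESeq2 1, limma-voom 0). Il1b, the cytokine interleukin 1 beta, averaged 4.31 ± 5.00 CPM with oxycodone and 0.525 ± 0.470 CPM with saline (SD, n = 5 each), and all 5 oxycodone libraries lay above every saline library (log2 change 2.95, SE 0.73, edgeR adjusted p 0.0912). Ventrally, 5 of 6 were positive with their median at 0.86, and 0 were called by edgeR (3 at an unadjusted p under 0.05, DESeq2 0, limma-voom 1).

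No gene of the machinery around the receptor passed the threshold. Of 14 chaperone cycle genes, 6 had positive log2 changes in the dorsal striatum (median -0.03) and 12 in the ventral striatum (median 0.18), where St13, the Hsp70-interacting protein Hip, had the lowest p at a log2 change of 0.25 (SE 0.09, edgeR adjusted p 0.477). Of 15 coregulators, 11 were positive in the dorsal and 7 in the ventral striatum, where the deacetylase Hdac3 had the lowest p at a log2 change of -0.22 (SE 0.06, edgeR adjusted p 0.393). Of the corticosteroid metabolism and transport genes, 6 of 10 were tested in each region, with medians of -0.12 in the dorsal and 0.02 in the ventral striatum. Of the corticotropin axis genes, 6 of 12 were tested in the dorsal and 5 in the ventral striatum, where Pomc, the precursor of corticotropin, had a log2 change of 1.02 (SE 0.41, edgeR adjusted p 0.508). Beside it, the pituitary hormone genes Gh and Prl had log2 changes of 2.36 (edgeR adjusted p 0.303) and 1.74 (edgeR adjusted p 0.262) there. Summed pituitary markers, a list that includes Pomc itself, ran from 12.8 to 66.3 CPM in ventral oxycodone and from 4.47 to 11.7 CPM in ventral saline libraries. The part of pituitary RNA in the Pomc difference was not tested. In these 4 lists 0 genes passed the threshold in either region by edgeR, DESeq2 or limma-voom, and 3 in the dorsal and 6 in the ventral striatum had an unadjusted p under 0.05.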

How the data were processed

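The values are raw counts per gene, deposited by the authors as 1 table of 22 libraries. Per the submitters' processing notes CASAVA 1.8.2, STAR 2.3 and featureCounts were used, and the builds mm10, GRCm38 and mm9 are named. The strand setting of the counting is not given in the sources used here. Counts were tested with edgeR 4.0.16 in R 4.3.3 (filterByExpr, TMM scaling, robust quasi-likelihood test, two-sided, 1 fit per comparison), with Benjamini-Hochberg adjustment over all genes tested and a threshold of 0.05. Symbols were found for 22205 of the 23119 gene IDs. CPM values are TMM-scaled over all 22 libraries, and mean log2 CPM uses a prior count of 2. DESeq2 1.42.0 and limma 3.58.1 (voom with quality weights), scalings, filters, batches, a haemoglobin covariate and left-out libraries were alternatives. The scripts were tested on simulated data. No pair of libraries of the same group agreed within sampling noise, and pairs between groups were not checked. The genes named with full values are the receptors, Fkbp5, Mt1, Mt2 and the lowest p-values of the list per comparison. The genes and lists were chosen with earlier results of these data known.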

Additional observations from a re-analysis of the deposited data

Results flagged for a closer look

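Within a group, 1 library lay far from the others for 14 of the 124 combinations of gene and group tested, in 8 libraries, where chance gives about 1 in 20. Ventral saline replicate 6, whose medium spiny neuron markers were low, accounted for 6 of them. It was the lowest of its group for Nr3c2 at 101.9, Arrdc3 at 37.5 and Mt1 at 161.2 CPM, and the highest for Zbtb16 at 81.9, Gpd1 at 50.2 and Gjb6 at 41.3 CPM. Dorsal saline replicate 2 was the highest of its group for Per1 at 124.9 and Arrdc2 at 42.6 CPM. Dorsal saline replicate 5 was the lowest for Zbtb16 at 13.4 CPM, and dorsal oxycodone replicate 5 the highest for Mt1 at 179.3 CPM. Pdk4 was lowest in dorsal oxycodone replicate 3 at 4.46 CPM and in ventral oxycodone replicate 1 at 6.15 CPM. Ventral saline replicate 2 was the highest for Ddit4 at 19.0 CPM, and ventral saline replicate 5 the lowest for Cdkn1a at 0.107 CPM.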

How the results depend on the processing

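In the dorsal striatum, where 30 genes and 1 of the 31 were called, the gene count was 57 at a threshold of 0.1, 86 by DESeq2, 1 in the 5 libraries with suffix P, 17 in the 5 without it and 2 with the haemoglobin covariate. It was 32 by limma-voom, 31 with the suffix as a covariate and 40 with libraries of the same title number and treatment summed. The count among the 31 was 2 by DESeq2, 4 by limma-voom, 2 with the suffix as a covariate, 3 with libraries of the same title number and treatment summed, and 0 in the suffix P libraries or with the haemoglobin covariate, which also lowered the median to 0.10. The dorsal counts hold more even than odd values, and halving them, an alternative chosen after seeing the data, gave 34 genes and 1 of the 31. Leaving out 1 dorsal library gave 1 to 63 genes, 0 to 3 of the 31 and medians of 0.29 to 0.58, with the lowest gene count without saline replicate 5 and the highest without oxycodone replicate 3. In the ventral striatum DESeq2 called 38 genes, limma-voom 61 with 1 of the 31, and the haemoglobin covariate gave 1 gene. Leaving out 1 ventral library gave 0 genes each time, medians of 0.20 to 0.32 and 22 to 29 of the 31 positive. The interaction gave 0 genes in all alternatives run. Between regions, leaving out 1 library gave 14 to 17 of the 31 in oxycodone and 13 to 17 in saline libraries. The causes were not tested. Dorsal and ventral libraries that share a title number had correlations of deviations of -0.0762 to 0.3085, with 1 of 10 pairs over 0.1, so the numbers were not taken as a pairing. The pair at 0.3085 was dorsal oxycodone replicate 5 and ventral oxycodone replicate 4. A replicate block by that number called 15 of the 31 in oxycodone (6657 genes) and 14 in saline libraries (5861 genes), against 13 (6391 genes) and 13 (6484 genes) in the same libraries without the block, and 0 in the interaction with and without it. No paired analysis was possible because oxycodone and saline libraries of a region share no title number and the labels do not say which mice were yoked to each other. Depth limits the low genes, such as Cdkn1a and Cebpb.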
